A study of Rattus norvegicus with 12 samples.

Results

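The genes described here are 42 cell cycle and proliferation genes, named in a list and matched by symbol to the deposited count table of a rat study of embolic stroke. The table held 17268 genes and 41 of the 42 members, since E2f1 had no entry. By role, 9 of 10 G1/S regulators (Cdk2, Cdk4, Cdk6, Ccnd1, Ccnd2, Ccnd3, Ccne1, Ccne2 and E2f2), 10 of 10 replication genes and 22 of 22 mitotic genes were measured in all 12 libraries.

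Messenger RNA was sequenced from the cerebral cortex of male Sprague Dawley rats, in 4 groups of 3 animals, to ask what acupuncture adds when a blocked brain artery is reopened late. In Sham rats the operation was done and no clot was given. Model rats received a clot, made from blood of donor rats, in the middle cerebral artery, and no further treatment. The rt-PA rats received the same clot and then recombinant tissue plasminogen activator, a drug that dissolves clots, at 10 mg/kg through the tail vein at 6 h. The rt-PA+Acu rats received that drug at the same dose and time after acupuncture at the Shuigou and Neiguan acupoints at 2 h. No group had acupuncture without rt-PA, so acupuncture alone and its combination with the drug cannot be told apart. The side of the cortex and the time at which tissue was taken for sequencing were not stated, so the values stand for 1 unstated time after the clot.

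Cells enter the cycle when D-type cyclins with CDK4 or CDK6, and then E-type cyclins with CDK2, inactivate the retinoblastoma protein and release E2F factors, which turn on the genes of DNA replication. The MCM helicase then opens the DNA at origins, PCNA holds the polymerases on it, and later CDK1 with cyclins A and B drives spindle assembly, chromosome separation and cytokinesis. In the adult cortex neurons do not divide, while glial precursors, microglia, reactive astrocytes, vascular cells and invading blood cells can, and genes of the early cycle can also be expressed in injured cells that do not divide.

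Library depth ranged from 11678450 counts in Model replicate 2 to 13616935 in Sham replicate 2, and 3 counts corresponded to between 0.208 and 0.262 CPM, the counts scaled to library size by TMM. These floors cover counting error only. Foxm1, a transcription factor of mitotic genes, had 0 counts in every Sham library, 11, 0 and 1 in Model, 25, 3 and 20 in rt-PA, and 0, 10 and 6 in rt-PA+Acu. Here and throughout, values in sets of 3 are those of replicates 1, 2 and 3, which have no order. Cortical neuron markers were present in every library, with Snap25, a synaptic vesicle fusion protein, between 1737 and 2951 CPM. Transcripts of the choroid plexus marker Ttr did not pass 0.254 CPM in any library.

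Some libraries stood apart from the others of their group across the members. Model replicate 3 had the lowest value of its group in 30 of 41 members, including 10 of 10 replication genes and 18 of 22 mitotic genes. In the rt-PA group replicate 3 was also lowest in 30 of 41 members, with 8 of 10 replication genes and 18 of 22 mitotic genes. By contrast, rt-PA+Acu replicate 3 was highest of its group in 30 of 41 members, with 10 of 10 replication genes and 15 of 22 mitotic genes. Results that rest on these libraries are therefore given with and without them.

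The role groups were summarised in each library by the median, over members, of the log2 CPM minus the Sham mean of the same gene. For replication genes this median was 1.52, 1.39 and 1.00 in Model, 1.73, 1.81 and 1.65 in rt-PA, and 0.39, 0.46 and 1.83 in rt-PA+Acu. All 6 Model and rt-PA libraries lay above the Sham range of -0.10 to 0.04, and rt-PA+Acu replicate 3 lay with the rt-PA libraries. For mitotic genes the median was 1.31, 0.67 and 0.10 in Model, 1.60, 1.22 and 1.06 in rt-PA, and 0.15, -0.04 and 0.83 in rt-PA+Acu. Model replicate 3 was close to the Sham range of -0.06 to 0.05, whereas the 3 rt-PA libraries were well above it. For G1/S regulators it was 0.13, 0.53 and 0.33 in Model, 0.54, 0.61 and 0.52 in rt-PA, and -0.18, -0.07 and 0.36 in rt-PA+Acu. These were the smallest of the 3 role medians in each Model and rt-PA library except Model replicate 3, where the mitotic median was smaller, and rt-PA+Acu replicate 3 was again the highest of its group.

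**Figure D1:**
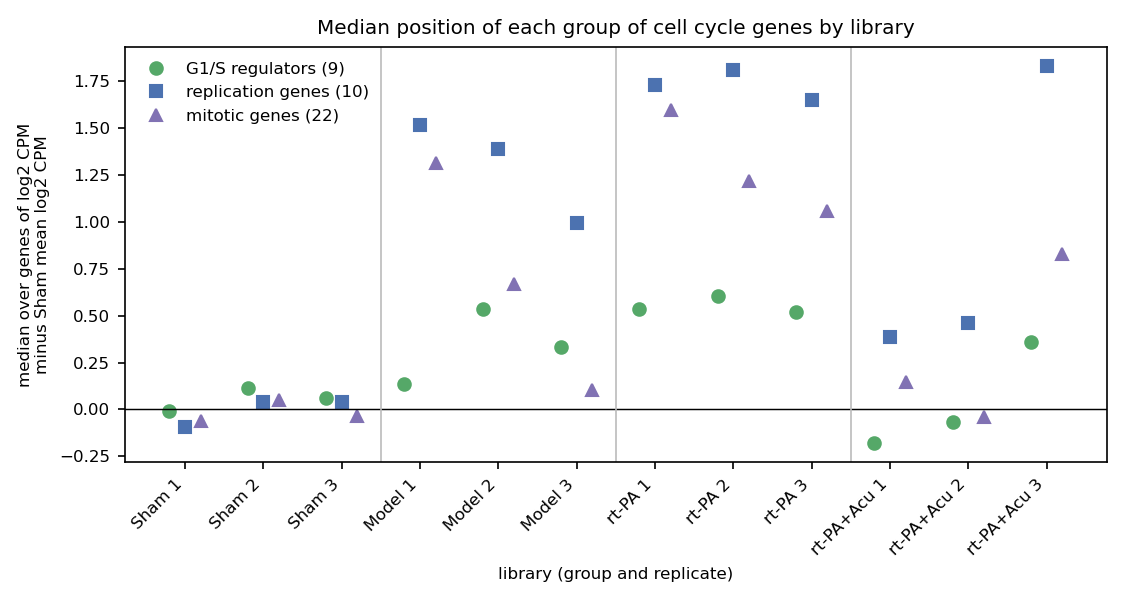
Median over the genes of each role group of log2 CPM minus the Sham mean of the same gene, with 1 point for each library and groups along the horizontal axis. The replication medians lie between 1.00 and 1.81 in Model and rt-PA, and rt-PA+Acu replicate 3 lies at 1.83, apart from the other libraries of its group.

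**Figure D2:**
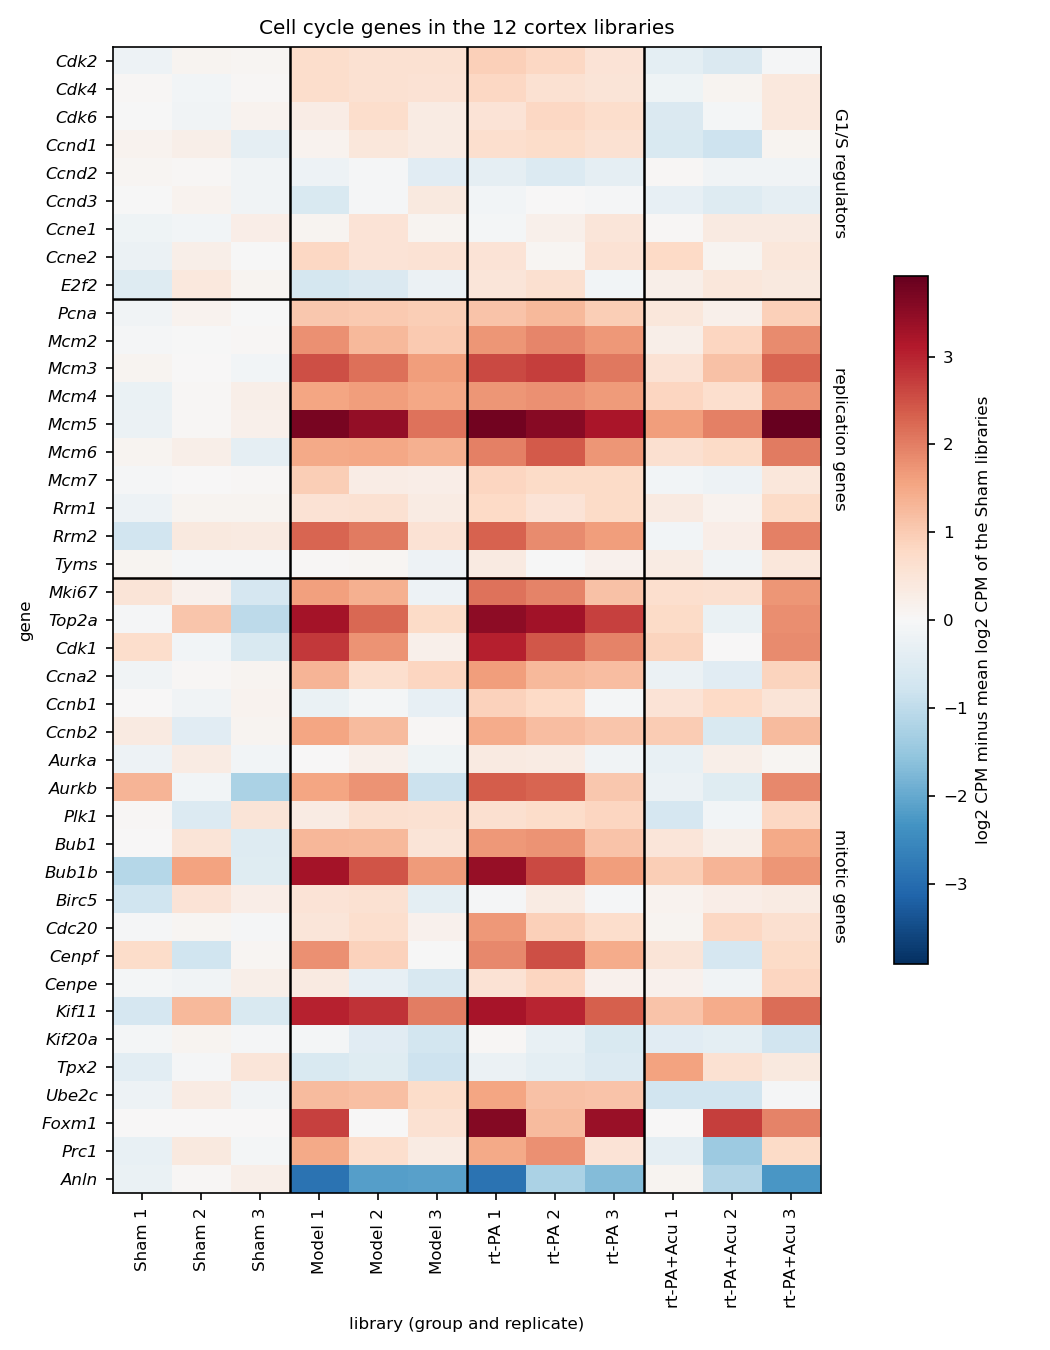
Heat map of the 41 measured members, ordered by role, in the 12 libraries, coloured by log2 CPM minus the Sham mean of the same gene. Replication genes are higher in Model and rt-PA than in Sham for 9 of 10 members, Anln is lower, and rt-PA+Acu replicate 3 is highest of its group in 30 of 41 members.

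The comparison of Model with Sham asks what untreated embolic stroke does to the cortex. Genes of DNA replication were higher in Model: the helicase subunit gene Mcm5 rose 10.9-fold and Mcm3 4.69-fold, while Pcna rose 2.02-fold. Of the G1/S regulators, Cdk2, Cdk4 and Ccne2 rose by between 1.54-fold and 1.57-fold. Mitotic genes were divided, with Kif11, Bub1b and Top2a higher, Mki67 not called and the cytokinesis gene Anln down to 0.194 of its Sham level. Bulk tissue cannot tell fewer cells of a type from less RNA per cell, nor more cells from more RNA.

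A gene was called when the adjusted p of edgeR's quasi-likelihood test, fitted over all genes of the 6 libraries, was under 0.05, and a DEG when its absolute log2 fold change was also over 1. In Model compared to Sham 37 of the 42 members passed the filter on low counts, and 18 of them (48.6%) were called, against a background of 54.0% of the 12884 genes tested. This share is near that of all genes and is not a result about the members. By direction, 17 members (45.9%) were called higher and 1 lower, where 27.3% of all genes were called higher and 26.6% lower. DEGs numbered 12 higher and 1 lower among members, and made up 21.5% of all genes. The median log2 fold change was 0.62 over the members tested and 0.01 over all genes. Cdk1, Ccnb2, Ube2c, Foxm1 and E2f1 were not tested. A member that passed the filter only through the group in which it was high had to differ, so counts and medians over those tested are a description. The call of such a gene is a description too, here and in the other comparisons and lists. Without single libraries the number called was 12 (Sham replicate 1), 17 (Sham replicate 2), 14 (Sham replicate 3), 12 (Model replicate 1), 14 (Model replicate 2) and 23 (Model replicate 3). Those called higher were 10 without Sham replicate 1 and 11 without Model replicate 1.

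Among G1/S regulators 3 of 9 (33.3%) were called in Model compared to Sham, all higher, against 27.3% of all genes. Cdk4, the kinase partner of D-type cyclins, was at 42.9, 37.8 and 42.9 CPM in Sham and 65.7, 61.9 and 61.2 CPM in Model. Every Model library was above every Sham library, and the gene rose by 0.62 ± 0.10 (log2 ± SE, adjusted p = 0.000942). Cdk2, the kinase that acts with cyclins E and A, was at 5.17, 6.51 and 6.38 CPM in Sham and 9.77, 9.13 and 9.17 CPM in Model. The groups did not overlap, and the log2 fold change was 0.65 ± 0.19 (adjusted p = 0.0178). For Cdk2 the call was lost at an adjusted p of 0.0703 without Sham replicate 1, in a range of 0.0108 to 0.0703 over 13 alternatives. Ccne2, a cyclin that activates CDK2 at the start of S phase, was at 10.5, 14.4 and 12.1 CPM in Sham and 21.6, 17.9 and 18.0 CPM in Model. All Model values lay above all Sham values, with a log2 fold change of 0.65 ± 0.17 (adjusted p = 0.0119). Cdk4 and Ccne2 stayed called without any single library.

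Ccnd1, the D-type cyclin that links growth signals to the cycle, was at 21.0, 22.4 and 15.1 CPM in Sham and 21.1, 26.0 and 24.0 CPM in Model. The ranges overlapped, since Sham replicate 2 was above Model replicate 1, and the gene was not called (log2 fold change 0.29 ± 0.17, adjusted p = 0.189). The other 5 G1/S regulators (Cdk6, Ccnd2, Ccnd3, Ccne1 and E2f2) had log2 fold changes between -0.58 and 0.48, with adjusted p from 0.153 to 0.911.

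Of the replication genes, 9 of 10 were called higher in Model, where 27.3% of all genes were, with a median log2 fold change of 1.46. Of the 9, 7 were DEGs, where DEGs of both directions together made up 21.5% of all genes. Tyms, the enzyme that makes thymidylate, was the exception (log2 fold change -0.02 ± 0.15, adjusted p = 0.923; above 0 without Sham replicate 1 or Model replicate 3). Without single libraries between 7 and 9 of the 10 were called.

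Promoter letters are described because E2F factors act on genes of DNA replication. Promoter windows of 300 bases, from 250 before to 50 after the gene start, were available from RefSeq (build GRCr8) for 29 of the 42 members. Entries were missing for Cdk6, Ccnd1, Ccnd2, Ccne2, E2f1, E2f2, Mcm4, Rrm2, Ccna2, Aurkb, Tpx2, Ube2c and Foxm1. The E2F motif was searched as TTTCCCGC, TTTCGCGC, TTTGCCGC and TTTGGCGC on both strands. These words occurred in 716 of 33469 promoters (2.14%), in 6 of 8 replication genes (75.0%; Mcm2, Mcm3, Mcm5, Mcm6, Mcm7 and Tyms), in 1 of 17 mitotic genes (5.88%; Cdk1) and in 0 of 4 G1/S regulators. Tyms, which was not called, held the word as did the called genes Mcm2, Mcm3, Mcm5, Mcm6 and Mcm7, while Pcna and Rrm1 did not. Mcm4, which was also called, had no window. The CCAAT box was found in 37.5% of all promoters, in 6 of 8 replication genes, in 2 of 4 G1/S regulators and in 13 of 17 mitotic genes (76.5%). The windows of the replication DEGs with the 2 largest log2 fold changes are shown, with E2F words in capitals. That of Mcm5 lies at chr19:13488563-13488862, plus strand, with a pair of overlapping words that start 213 and 209 bases before the gene start and a further word 8 bases before it, the word at 209 being read on the opposite strand. That of Mcm3 lies at chr9:30733697-30733996, minus strand, with words 6 bases before the start, on the opposite strand, and 14 bases after it. A match is a description of the letters and not a bound site.
Mcm5: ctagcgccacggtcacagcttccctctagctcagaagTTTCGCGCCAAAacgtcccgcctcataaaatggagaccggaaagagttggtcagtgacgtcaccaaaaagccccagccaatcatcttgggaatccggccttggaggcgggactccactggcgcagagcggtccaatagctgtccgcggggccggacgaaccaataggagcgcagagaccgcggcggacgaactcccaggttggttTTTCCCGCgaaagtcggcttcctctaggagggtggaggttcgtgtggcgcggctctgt
Mcm3: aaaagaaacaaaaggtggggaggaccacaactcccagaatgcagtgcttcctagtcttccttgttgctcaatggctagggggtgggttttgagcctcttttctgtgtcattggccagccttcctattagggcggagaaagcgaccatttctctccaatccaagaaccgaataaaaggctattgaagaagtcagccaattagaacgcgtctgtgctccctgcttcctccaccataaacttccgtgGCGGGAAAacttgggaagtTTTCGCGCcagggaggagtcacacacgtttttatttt

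Mcm5, a helicase subunit, was at 0.727, 0.919 and 1.05 CPM in Sham and 13.7, 11.3 and 4.38 CPM in Model. All 3 Model libraries were above Sham, Model replicate 3 by the least, and the log2 fold change was 3.45 ± 0.47 (adjusted p = 0.000512). Mcm3, another subunit of the same ring, was at 2.34, 2.22 and 2.01 CPM in Sham and 13.3, 10.2 and 7.19 CPM in Model. The groups were fully separate, with a log2 fold change of 2.23 ± 0.28 (adjusted p = 0.000358). Pcna, the sliding clamp of the replication polymerases, was at 30.7, 37.7 and 33.8 CPM in Sham and 70.3, 68.9 and 66.1 CPM in Model. The 3 Model values lay close together and far above Sham, and the log2 fold change was 1.02 ± 0.10 (adjusted p = 0.000129). Mcm5, with 9, 12 and 12 counts in Sham, passed the filter on low counts only through the Model libraries, so its call is a description. Mcm3 and Pcna were called in every alternative. Mcm5 was called in all but the filter of at least 10 counts in every library, which left it out. Rrm2, the subunit of ribonucleotide reductase that cycling cells make for S phase, was at 1.13, 2.68 and 2.62 CPM in Sham and 10.5, 8.71 and 3.06 CPM in Model. Model replicate 3 was just above the highest Sham value, and the log2 fold change was 1.80 ± 0.50 (adjusted p = 0.0158). Leaving out 1 library took Rrm2 past the threshold, to an adjusted p of 0.0544 without Sham replicate 1, 0.0502 without Model replicate 1 and 0.0515 without Model replicate 2, in a range of 0.00116 to 0.0544 over 13 alternatives.

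Mcm7, also a subunit of the helicase ring, was at 17.5, 18.2 and 18.5 CPM in Sham and 35.4, 22.2 and 21.8 CPM in Model. Model replicate 1 was the highest and the other Model libraries were closer to Sham, with no overlap, and the log2 fold change was 0.56 ± 0.20 (adjusted p = 0.0436). Mcm7 lost its call at an adjusted p of 0.112 without Sham replicate 1, 0.102 without Sham replicate 2, 0.0943 without Sham replicate 3 and 0.116 without Model replicate 1, in a range of 0.0173 to 0.116 over 13 alternatives, and its log2 fold change was 0.29 without Model replicate 1. The Mcm7 call was also lost with a block for replicate number. The other called members, Mcm2, Mcm4, Mcm6 and Rrm1, had log2 fold changes between 0.51 and 1.57, adjusted p between 6.6e-05 and 0.0113, and non-overlapping groups, and stayed called without any single library.

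**Figure D3:**
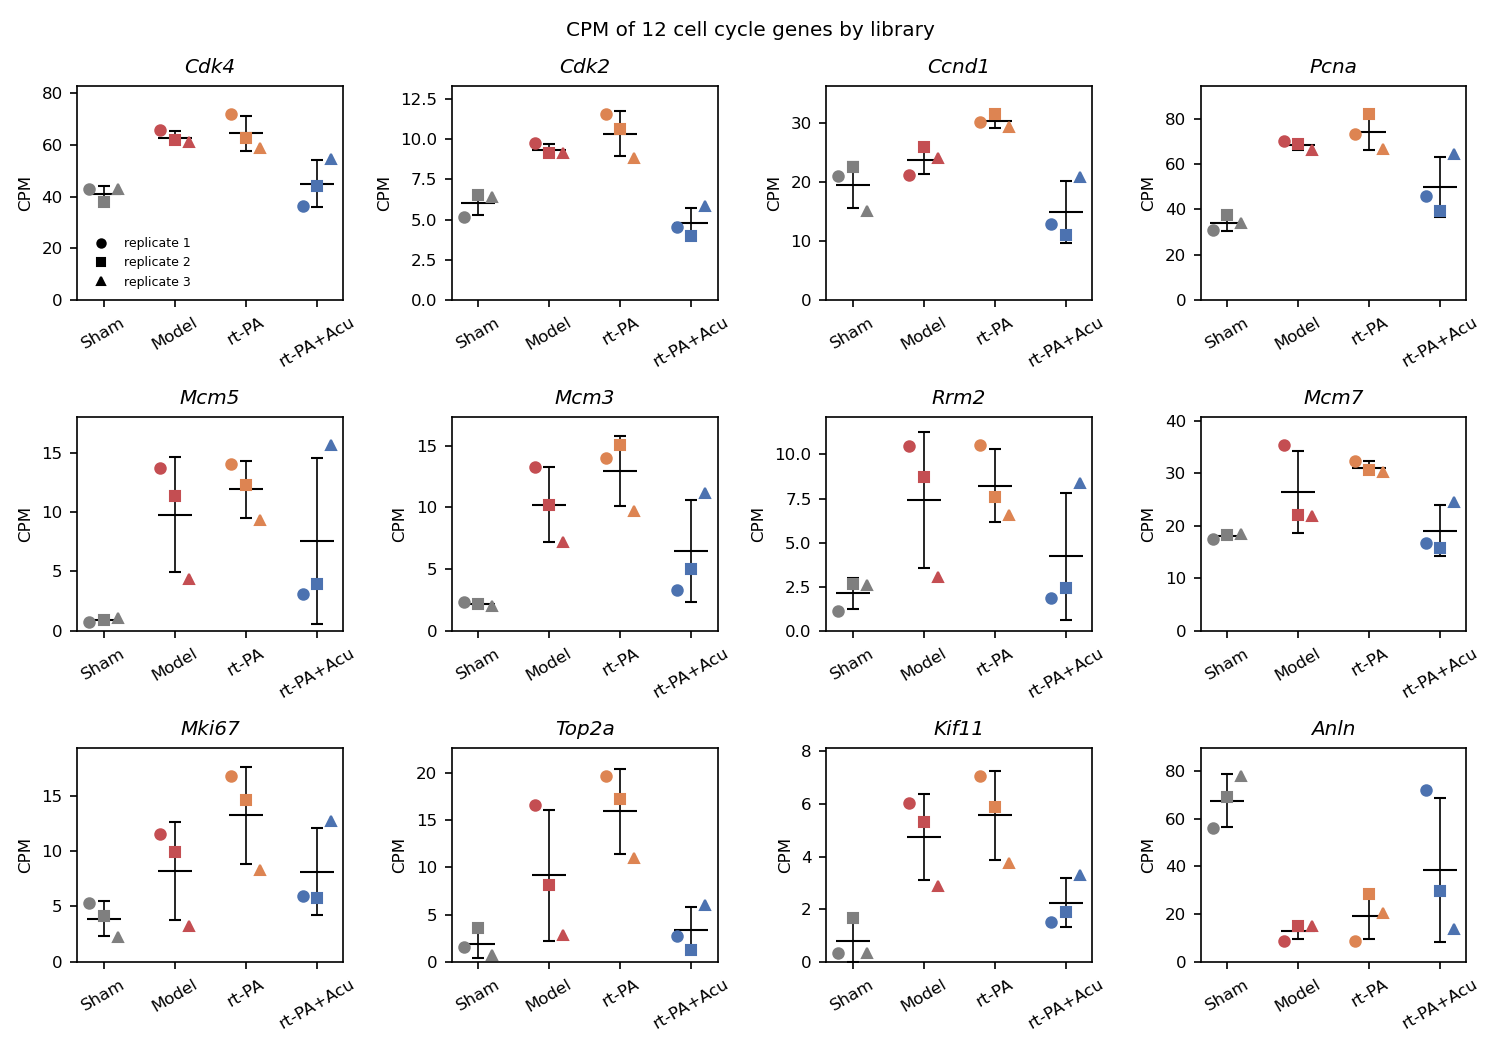
CPM of 12 members in each library, by group, with a marker for each replicate number and a bar for the group mean ± SD (n = 3). Mcm5, Mcm3 and Pcna are higher in every Model and rt-PA library than in Sham, and rt-PA+Acu replicate 3 is the highest of its group for each of the 6 replication and G1/S genes Mcm5, Mcm3, Pcna, Rrm2, Mcm7 and Cdk4.

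Of the mitotic genes 5 of the 18 tested (27.8%) were called higher in Model and 1 lower, with a median log2 fold change of 0.71. The share called higher was near the 27.3% of all genes. The number called higher was 1 without Sham replicate 1, 5 without Sham replicate 2, 2 without Sham replicate 3, 1 without Model replicate 1, 2 without Model replicate 2 and 10 without Model replicate 3. Without Sham replicate 1, 2 were called lower.

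The cell cycle homology region, a promoter element of genes expressed late in the cycle, was searched on both strands. Its words were TTTGAA, the variant TTTAAA ending in 3 identical letters, and TTCGAA, which differs from the first word at its letter 3. It was found in 29.4% of all promoters, in 17 of 17 mitotic genes with a window, in 3 of 8 replication genes and in 1 of 4 G1/S regulators. The windows below are of 4 genes. Kif11, Bub1b and Top2a are shown as the called mitotic genes with the largest rises. Cdk1 is shown because it alone of the 17 mitotic genes with a window also held an E2F word. Kif11 lies at chr1:244536617-244536916, plus strand, with a word 35 bases before the start. Bub1b lies at chr3:126016817-126017116, plus strand, with words 225 and 4 bases before it. Top2a lies at chr10:84473044-84473343, minus strand, with words 152 and 22 bases before it, the second read on the opposite strand. Cdk1 lies at chr20:19265043-19265342, plus strand, with an E2F word 133 bases and homology region words 72 and 16 bases before the start. Capitals mark these words, and no words overlapped in these 4 windows.
Kif11: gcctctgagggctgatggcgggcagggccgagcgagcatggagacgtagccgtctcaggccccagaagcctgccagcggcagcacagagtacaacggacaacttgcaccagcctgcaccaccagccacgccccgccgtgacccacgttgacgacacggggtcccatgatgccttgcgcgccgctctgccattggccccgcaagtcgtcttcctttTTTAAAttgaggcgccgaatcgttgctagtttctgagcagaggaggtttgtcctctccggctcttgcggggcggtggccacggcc
Bub1b: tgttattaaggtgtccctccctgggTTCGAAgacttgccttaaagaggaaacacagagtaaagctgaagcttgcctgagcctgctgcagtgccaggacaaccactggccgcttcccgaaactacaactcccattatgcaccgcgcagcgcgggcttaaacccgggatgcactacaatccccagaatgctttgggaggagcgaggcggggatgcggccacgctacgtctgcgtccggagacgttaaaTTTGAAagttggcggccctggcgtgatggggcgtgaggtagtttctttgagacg
Top2a: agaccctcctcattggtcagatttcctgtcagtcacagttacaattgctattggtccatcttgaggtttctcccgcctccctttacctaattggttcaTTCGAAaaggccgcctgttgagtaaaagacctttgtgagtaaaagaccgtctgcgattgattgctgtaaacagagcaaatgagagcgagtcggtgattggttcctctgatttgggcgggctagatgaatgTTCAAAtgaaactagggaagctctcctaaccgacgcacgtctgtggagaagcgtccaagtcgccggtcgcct
Cdk1: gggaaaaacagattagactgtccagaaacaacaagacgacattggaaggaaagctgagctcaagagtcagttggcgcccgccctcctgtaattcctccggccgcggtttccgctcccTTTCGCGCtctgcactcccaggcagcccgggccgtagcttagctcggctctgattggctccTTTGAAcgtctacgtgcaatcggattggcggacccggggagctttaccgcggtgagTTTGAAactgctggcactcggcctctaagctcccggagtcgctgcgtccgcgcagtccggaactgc

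Kif11, the kinesin that pushes spindle poles apart, was at 0.323, 1.68 and 0.349 CPM in Sham and 6.03, 5.33 and 2.89 CPM in Model. Sham replicate 2 was the highest of Sham and still below all Model libraries, and the log2 fold change was 2.57 ± 0.61 (adjusted p = 0.00763), or 3.78 without Sham replicate 2. Kif11, with 4, 22 and 4 counts in Sham, passed the filter on low counts only through the Model libraries, so its call is a description. Bub1b, a kinase of the spindle checkpoint, was at 0, 0.842 and 0.0873 CPM in Sham and 3.05, 1.69 and 0.909 CPM in Model. Sham replicate 1 had 0 counts, and Sham replicate 2 came close to Model replicate 3 without overlap, with a log2 fold change of 2.54 ± 0.91 (adjusted p = 0.0437). Bub1b passed the filter on low counts only through the Model libraries, so its call is a description. The Bub1b call was lost in some fits, with an adjusted p of 0.101 without Sham replicate 1, 0.134 without Sham replicate 3, 0.135 without Model replicate 1 and 0.0822 without Model replicate 2, in a range of 0.00905 to 0.135 over 12 alternatives, and its log2 fold change was 5.18 without Sham replicate 2. Top2a, the topoisomerase that untangles sister chromatids, was at 1.54, 3.60 and 0.699 CPM in Sham and 16.6, 8.12 and 2.81 CPM in Model. Model replicate 3 lay within the Sham range, and the log2 fold change was 2.23 ± 0.70 (adjusted p = 0.0266). Top2a had 19, 47 and 8 counts in Sham and passed the filter through Model alone, so its call is a description as well. For Top2a the call was lost at an adjusted p of 0.0867 without Sham replicate 1, 0.0834 without Sham replicate 3, 0.0976 without Model replicate 1 and 0.0527 without Model replicate 2, in a range of 0.00182 to 0.0976 over 12 alternatives, and its log2 fold change was 1.48 without Model replicate 1 and 3.02 without Sham replicate 2.

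Mki67, the chromosome surface protein used as a marker of dividing cells, was at 5.33, 4.13 and 2.27 CPM in Sham and 11.5, 9.89 and 3.22 CPM in Model. Model replicate 3 lay within the Sham range while the other Model libraries were above it, and the gene was not called (log2 fold change 1.08 ± 0.48, adjusted p = 0.0907). Without Model replicate 3 its log2 fold change was 1.46 and it was called (adjusted p = 0.00555, in a range of 0.00555 to 0.26 over 13 alternatives). Cdk1, the kinase that drives entry into mitosis, was at 0.647, 0.306 and 0.175 CPM in Sham and 3.21, 1.52 and 0.413 CPM in Model. It had at most 8 counts in a Sham library and 42, 18 and 5 counts in Model, and was not tested in this comparison. Model replicate 3 was again within the Sham range.

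Anln codes for anillin, a scaffold of the cytokinetic ring that mature oligodendrocytes also express. It was at 56.0, 68.9 and 77.9 CPM in Sham and 8.93, 15.1 and 15.1 CPM in Model, and every Model value lay below every Sham value (log2 fold change -2.37 ± 0.21, adjusted p = 7.52e-05; called without any single library). Markers of mature oligodendrocytes moved with it: 4 of 5 were called lower in Model and 0 higher, and none was at 0. Their summed level, with Mbp the most abundant, was 11563, 14656 and 17371 CPM in Sham and 1561, 3581 and 8204 CPM in Model. The part of oligodendrocyte RNA in the Anln result was not tested. The number of these markers called lower was 3 without Sham replicate 2, 2 without Sham replicate 3, 1 without Model replicate 2 and 5 without Model replicate 3. Of the remaining mitotic genes Ccna2 (cyclin A2) and Bub1 (a checkpoint kinase) were called higher, with log2 fold changes of 1.03 ± 0.28 and 1.07 ± 0.39 and adjusted p of 0.0145 and 0.0464. For Ccna2 the adjusted p was 0.0529 without Sham replicate 1 and 0.0511 without Model replicate 1, in a range of 0.0102 to 0.0529. For Bub1 it was 0.057 by DESeq2, 0.0539 with at least 1 count, 0.0515 with 1 fit over 12 libraries, 0.119 without Sham replicate 1, 0.144 without Sham replicate 3, 0.122 without Model replicate 1 and 0.13 without Model replicate 2, in a range of 0.0189 to 0.144.

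The comparison of rt-PA with Model asks what late thrombolysis adds to the stroke. No member was called in either direction, and values of most members were somewhat higher in rt-PA. Mki67 was at 16.8, 14.6 and 8.32 CPM and Top2a at 19.7, 17.2 and 11.0 CPM in rt-PA, against 11.5, 9.89 and 3.22 and 16.6, 8.12 and 2.81 CPM in Model. For both genes the ranges overlapped, as rt-PA replicate 3 lay below Model replicate 1.

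Of the 41 members tested, 0 were called by edgeR, 4 had an unadjusted p under 0.05 and 0 were called by DESeq2. Those at an unadjusted p under 0.05 were 9 without Model replicate 1, 2 without Model replicate 2 and 1 without rt-PA replicate 2. Over all genes edgeR called 0 (0%) of 12941 and 1284 had an unadjusted p under 0.05, while DESeq2 called 204. By direction 36 of 41 members were higher in rt-PA, with a median log2 fold change of 0.24 against 0.00 over all genes. By role these were 5 of 9 G1/S regulators, 10 of 10 replication genes and 21 of 22 mitotic genes, and without Model replicate 3 the number was 31 of 41. The smallest adjusted p was 0.379, for Mcm6 (log2 fold change 0.60 ± 0.19), which is named after its values were seen. Log2 fold changes were 0.12 ± 0.10 for Pcna, 0.36 ± 0.12 for Ccnd1, 0.69 ± 0.46 for Mki67, 0.80 ± 0.54 for Top2a and 0.67 ± 0.64 for Cdk1. Their adjusted p lay between 0.419 and 0.781. Without Model replicate 1 the log2 fold change was 1.55 for Top2a and 1.50035 for Cdk1, neither called. A p that misses the threshold does not show that the groups did not differ. Of 87 pathway genes tested, described below by list, 0 were called by edgeR, 11 had an unadjusted p under 0.05 and 1 was called by DESeq2. Of 57 cell type markers tested edgeR called 0, with 17 at an unadjusted p under 0.05 and 7 called by DESeq2.

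The comparison of rt-PA+Acu with rt-PA asks what acupuncture before the drug adds. Some genes of the G1/S step and of mitosis were called lower with acupuncture, 3 of 9 and 5 of 22, and 1 of each was called higher, where 17.7% of all genes were called lower and 17.0% higher. The mitotic share (22.7%) is near that of all genes. Cdk2 was at 0.465 and Ccnd1 at 0.493 of the rt-PA level, and Top2a at 0.215. Most replication genes were lower in 2 of the 3 rt-PA+Acu libraries, while replicate 3 of that group lay within or above the rt-PA range for several of them, and 1 of 10 was called. Without that library 9 of the 10 were called lower, and of all genes 2771 were, against 2306 with all libraries. The number of replication genes called lower was 0 without rt-PA replicate 1, rt-PA replicate 3, rt-PA+Acu replicate 1 or rt-PA+Acu replicate 2.

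All 41 measured members were tested and 11 (26.8%) were called, against 34.8% of the 12999 genes tested. Of these, 9 (22.0%) were lower and 2 higher in rt-PA+Acu, to be read against the 17.7% and 17.0% of all genes. With all libraries the share called lower is near that of all genes and is not a result about the members. The share called higher (4.88%) was below that of all genes, and it rests on 2 genes, Ccnd2 and Tpx2, that lost their calls without single libraries, as given below. DEGs were 7 lower and 1 higher among members, and 15.3% of all genes. The median log2 fold change was -0.65 for members and -0.00 for all genes. Without single libraries the number called was 4 (rt-PA replicate 1), 6 (rt-PA replicate 2), 7 (rt-PA replicate 3), 3 (rt-PA+Acu replicate 1), 4 (rt-PA+Acu replicate 2) and 25 (rt-PA+Acu replicate 3). Without rt-PA+Acu replicate 3 these were 23 lower (56.1%, against 21.0% of all genes) and 2 higher, and 41.1% of all genes were called, where without any other library it was between 18.9% and 30.0%.

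G1/S regulators had 3 of 9 called lower (33.3%, against 17.7% of all genes) and 1 higher (11.1%, against 17.0%). Cdk2 was at 11.6, 10.6 and 8.84 CPM in rt-PA and 4.55, 4.01 and 5.84 CPM in rt-PA+Acu. The groups did not overlap, with a log2 fold change of -1.10 ± 0.22 (adjusted p = 0.00978; 0.000482 to 0.0405 over 13 alternatives). Ccnd1 was at 30.2, 31.5 and 29.2 CPM in rt-PA and 12.8, 11.0 and 20.9 CPM in rt-PA+Acu. All rt-PA+Acu values were below rt-PA, replicate 3 by the least, with a log2 fold change of -1.02 ± 0.24 (adjusted p = 0.0156). Leaving out 1 library took Ccnd1 past the threshold, to an adjusted p of 0.054 without rt-PA+Acu replicate 1, in a range of 0.000696 to 0.054 over 13 alternatives. Its adjusted p without rt-PA+Acu replicate 2 was 0.05 after rounding and still under the threshold. Cdk4 was at 72.1, 62.7 and 58.9 CPM in rt-PA and 36.3, 44.3 and 54.6 CPM in rt-PA+Acu. Replicate 3 of rt-PA+Acu came within a few CPM of the lowest rt-PA library without overlap, and the log2 fold change was -0.52 ± 0.17 (adjusted p = 0.0458).

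The Cdk4 call depended on single libraries: its adjusted p was 0.142 without rt-PA replicate 1, 0.0776 without rt-PA replicate 2, 0.0753 without rt-PA replicate 3, 0.12 without rt-PA+Acu replicate 1 and 0.127 without rt-PA+Acu replicate 2, in a range of 0.01 to 0.142 over 13 alternatives. The Cdk4 call was also lost with a block for replicate number. The 1 regulator called higher, chosen for mention after its values were seen, was Ccnd2, a D-type cyclin of neural progenitors. It was at 145, 127 and 142 CPM in rt-PA and 188, 168 and 167 CPM in rt-PA+Acu. The ranges did not overlap (log2 fold change 0.33 ± 0.11, adjusted p = 0.0443), and the adjusted p was 0.143 with library size alone, 0.0859 without rt-PA replicate 1, 0.125 without rt-PA replicate 2, 0.0996 without rt-PA replicate 3, 0.139 without rt-PA+Acu replicate 1 and 0.0885 without rt-PA+Acu replicate 2, in a range of 0.0197 to 0.143. The number of regulators called was 2 without rt-PA replicate 1, 2 or 3, 1 without rt-PA+Acu replicate 1, 2 without rt-PA+Acu replicate 2 and 4 without rt-PA+Acu replicate 3. Ccne2, called in Model compared to Sham, was at 18.0, 12.9 and 18.1 CPM in rt-PA and 21.0, 13.2 and 16.5 CPM in rt-PA+Acu. These ranges overlapped and the gene was not called (log2 fold change 0.05 ± 0.22, adjusted p = 0.869; below 0 without rt-PA replicate 2 or rt-PA+Acu replicate 1).

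Among replication genes Mcm7 was the 1 of 10 called, and it was lower. It was at 32.4, 30.6 and 30.2 CPM in rt-PA and 16.8, 15.8 and 24.6 CPM in rt-PA+Acu. Replicate 3 of rt-PA+Acu was the highest of its group and still below rt-PA, with a log2 fold change of -0.70 ± 0.19 (adjusted p = 0.0249). Mcm7 lost its call at an adjusted p of 0.0749 without rt-PA replicate 1, 0.0625 without rt-PA replicate 3, 0.0807 without rt-PA+Acu replicate 1 and 0.0864 without rt-PA+Acu replicate 2, in a range of 0.00279 to 0.0864 over 13 alternatives. Pcna was at 73.2, 82.0 and 66.6 CPM in rt-PA and 46.0, 39.0 and 64.4 CPM in rt-PA+Acu. The groups did not overlap, but the gene was not called (log2 fold change -0.57 ± 0.19, adjusted p = 0.0535). Without rt-PA+Acu replicate 3 its log2 fold change was -0.79 (adjusted p = 0.0056), and it was also called by DESeq2 (adjusted p = 0.0297) and with 1 fit over 12 libraries (adjusted p = 0.0137), in a range of 0.0056 to 0.153.

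Mcm5, whose promoter is printed above, was at 14.1, 12.3 and 9.35 CPM in rt-PA and 3.11, 3.92 and 15.6 CPM in rt-PA+Acu. Replicates 1 and 2 of rt-PA+Acu were well below rt-PA and replicate 3 was above all rt-PA libraries, and the gene was not called (log2 fold change -0.64 ± 0.57, adjusted p = 0.41). Mcm3 was at 14, 15.1 and 9.72 CPM in rt-PA and 3.28, 5.05 and 11.2 CPM in rt-PA+Acu, where replicate 3 lay within the rt-PA range (log2 fold change -0.98 ± 0.43, adjusted p = 0.11). Rrm2 was at 10.5, 7.60 and 6.56 CPM in rt-PA and 1.85, 2.44 and 8.38 CPM in rt-PA+Acu, with replicate 3 again within the rt-PA range (log2 fold change -0.95 ± 0.54, adjusted p = 0.208). Without that library these 3 genes were called lower. The log2 fold changes were then -1.75 (adjusted p = 0.00387, in a range of 0.00387 to 0.737), -1.62 (0.00737, in a range of 0.00737 to 0.272) and -1.93 (0.00523, in a range of 0.00523 to 0.443). The median over the 10 genes was -0.64 with all libraries and -1.10 without that library. The number called was 0 of 10 without rt-PA replicate 1, rt-PA replicate 3, rt-PA+Acu replicate 1 or rt-PA+Acu replicate 2. In these 4 fits by edgeR, between 1 and 3 of the 10 had an unadjusted p under 0.05, while with all 6 libraries DESeq2 called 2.

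**Figure D4:**
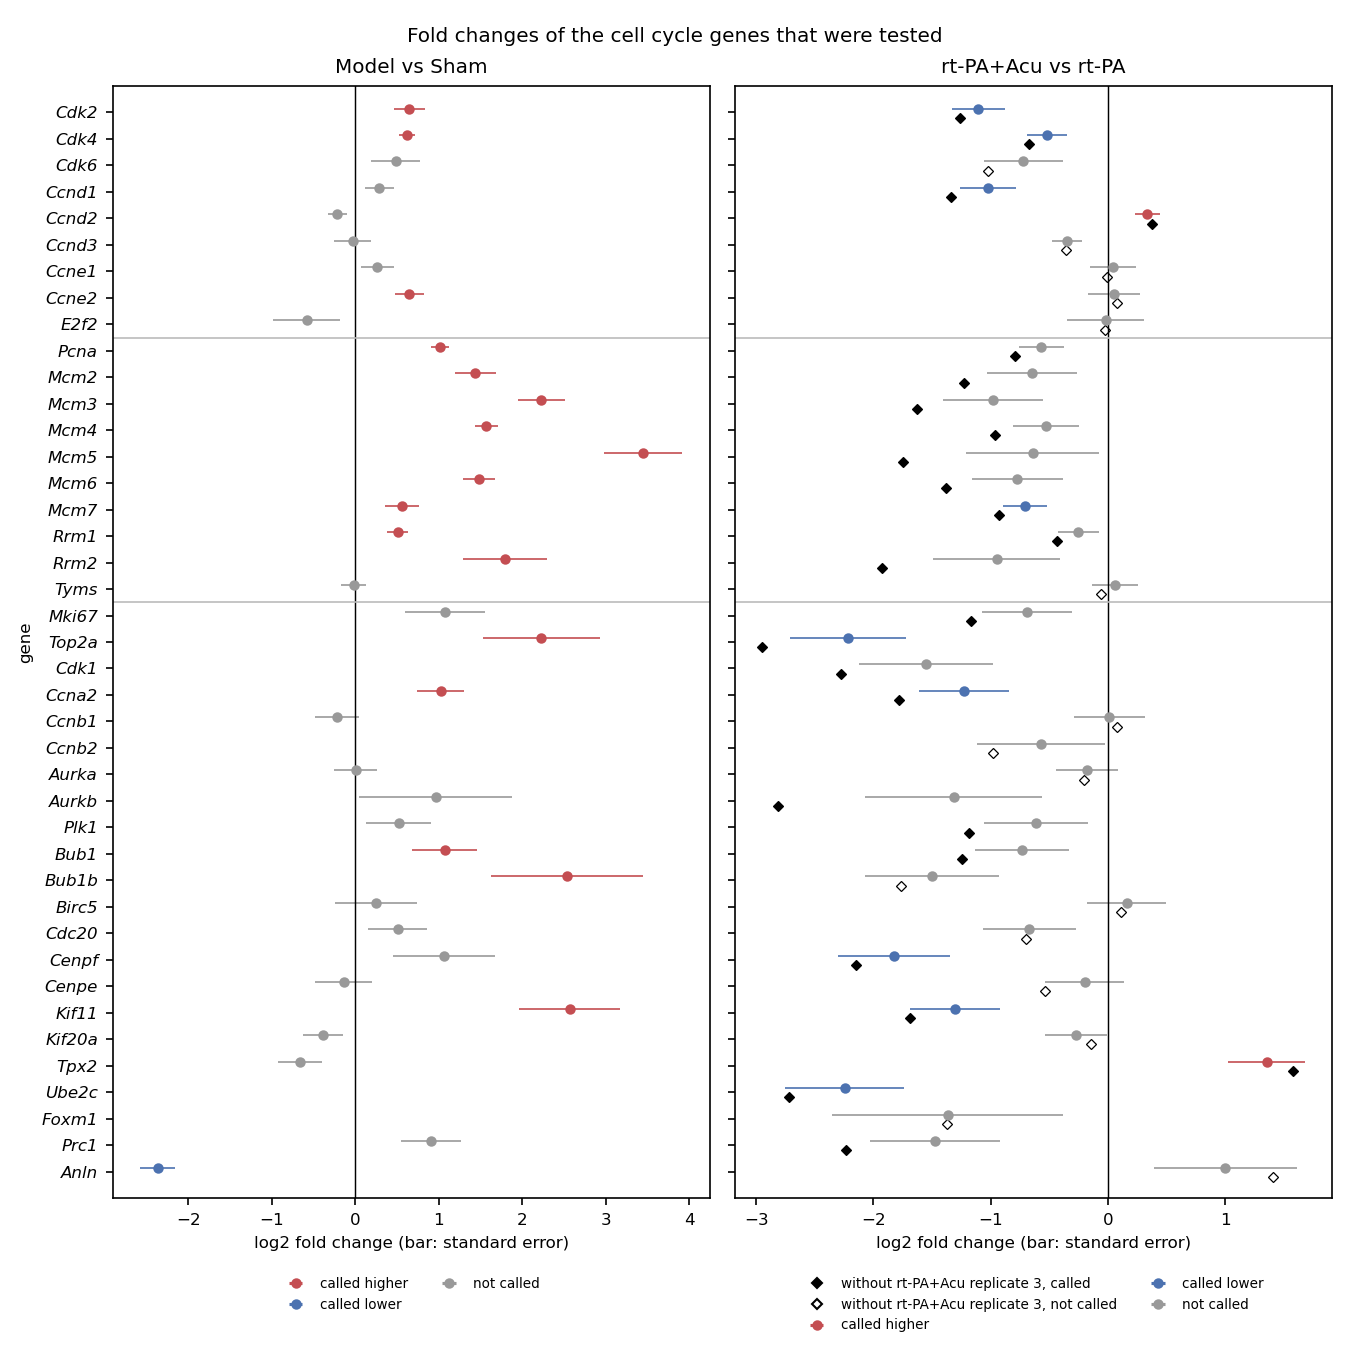
Log2 fold change ± SE of the members in Model compared to Sham and in rt-PA+Acu compared to rt-PA, with diamonds for the second comparison without rt-PA+Acu replicate 3. Replication genes lie to the right of 0 in the first comparison for 9 of 10 members, and the diamonds of Mcm5, Mcm3 and Rrm2 lie further left of 0 than the values with all libraries.

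Mitotic genes had 5 of 22 called lower (22.7%, near the 17.7% of all genes and so not a result about the list) and 1 higher in rt-PA+Acu. Ube2c, the ubiquitin-conjugating enzyme of the anaphase-promoting complex, was at 1.46, 1.08 and 1.03 CPM in rt-PA and 0.168, 0.174 and 0.374 CPM in rt-PA+Acu. In counts this was 21, 15 and 14 against 2, 2 and 5, so that replicates 1 and 2 of rt-PA+Acu were under the floor of 3 counts. Ube2c passed the filter on low counts only through the rt-PA libraries, so its call is a description. The log2 fold change was -2.25 ± 0.51 (adjusted p = 0.014), and the adjusted p was 0.0573 without rt-PA replicate 1, 0.0528 without rt-PA+Acu replicate 1 and 0.0579 without rt-PA+Acu replicate 2, in a range of 0.00303 to 0.0579. Top2a was at 19.7, 17.2 and 11.0 CPM in rt-PA and 2.78, 1.31 and 6.06 CPM in rt-PA+Acu. All rt-PA libraries were above all rt-PA+Acu libraries, with a log2 fold change of -2.22 ± 0.49 (adjusted p = 0.0132; called in 13 of 13 alternatives, 3.92e-05 to 0.0471), or -2.95 without rt-PA+Acu replicate 3. Cenpf, a kinetochore protein, was at 3.81, 6.02 and 2.80 CPM in rt-PA and 1.35, 0.523 and 1.65 CPM in rt-PA+Acu. The groups did not overlap, and the log2 fold change was -1.82 ± 0.48 (adjusted p = 0.0234). Cenpf, with 16, 6 and 22 counts in rt-PA+Acu, passed the filter only through rt-PA, so its call is a description. The Cenpf call was lost in some fits, with an adjusted p of 0.0568 without rt-PA replicate 1, 0.0685 without rt-PA replicate 2, 0.0592 without rt-PA+Acu replicate 1 and 0.0627 without rt-PA+Acu replicate 2, in a range of 0.00353 to 0.0685.

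Kif11 and Ccna2 were the other mitotic genes called lower. Kif11 was at 7.07, 5.88 and 3.76 CPM in rt-PA and 1.52, 1.92 and 3.29 CPM in rt-PA+Acu. The groups did not overlap (log2 fold change -1.30 ± 0.39, adjusted p = 0.0347), and the adjusted p was 0.0594 with 1 fit over 12 libraries, 0.117 without rt-PA replicate 1, 0.0764 without rt-PA replicate 2, 0.1 without rt-PA+Acu replicate 1 and 0.112 without rt-PA+Acu replicate 2, in a range of 0.0119 to 0.117. For Ccna2 the log2 fold change was -1.23 ± 0.39 (adjusted p = 0.0431), and the adjusted p was 0.129 without rt-PA replicate 1, 0.0715 without rt-PA replicate 2, 0.0792 without rt-PA replicate 3, 0.124 without rt-PA+Acu replicate 1 and 0.126 without rt-PA+Acu replicate 2, in a range of 0.00466 to 0.129. Tpx2, a spindle assembly factor that activates Aurora A and was called higher, is named after its values were seen. It was at 7.62, 6.81 and 6.19 CPM in rt-PA and 27.4, 13.7 and 11.8 CPM in rt-PA+Acu. Replicate 1 of rt-PA+Acu was the highest of its group, and all 3 were above rt-PA (log2 fold change 1.35 ± 0.33, adjusted p = 0.0174). The adjusted p was 0.0612 without rt-PA replicate 3, in a range of 0.000592 to 0.0612, and without rt-PA+Acu replicate 1 the log2 fold change was 0.89.

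Mki67 was at 16.8, 14.6 and 8.32 CPM in rt-PA and 5.98, 5.75 and 12.7 CPM in rt-PA+Acu. Replicate 3 of rt-PA+Acu lay within the rt-PA range and the other libraries of its group below it, and the gene was not called (log2 fold change -0.69 ± 0.38, adjusted p = 0.194). Cdk1 was at 3.95, 2.51 and 1.77 CPM in rt-PA and 0.758, 0.349 and 1.65 CPM in rt-PA+Acu. The groups were separate, by little for replicate 3 of rt-PA+Acu, and the gene was not called (log2 fold change -1.55 ± 0.57, adjusted p = 0.0701). Without rt-PA+Acu replicate 3 both were called lower, Mki67 with -1.16 (adjusted p = 0.0279, range 0.0279 to 0.441) and Cdk1 with -2.28 (adjusted p = 0.0198, range 0.0198 to 0.22). DESeq2 also called Cdk1 (adjusted p = 0.0476). Cdk1, at 9, 4 and 22 counts in rt-PA+Acu, passed the edgeR filter only through rt-PA, so its edgeR call is a description. Anln was at 8.87, 28.3 and 20.5 CPM in rt-PA and 72.1, 29.9 and 13.7 CPM in rt-PA+Acu, where replicate 1 was far above the other libraries of both groups (log2 fold change 1.00 ± 0.61, adjusted p = 0.235; 0.18 without that library). The summed mature oligodendrocyte markers were 2573, 11029 and 3167 CPM in rt-PA and 20365, 8389 and 3025 CPM in rt-PA+Acu. They were highest in the library in which Anln was highest, in each of these groups, and their part in the Anln values was not tested. The number of mitotic genes called lower was 1 without rt-PA replicate 1, 2 without rt-PA replicate 2, 5 without rt-PA replicate 3, 1 without rt-PA+Acu replicate 1 or 2, and 11 without rt-PA+Acu replicate 3.

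The last 2 comparisons set the treated groups against Sham. In the rt-PA cortex Top2a, Cdk1, Mki67, Pcna and Ccnd1 were all called higher. Cdk1, with 8, 4 and 2 counts in Sham, passed the filter on low counts only through rt-PA, so its call is a description. The same holds for Top2a, with 19, 47 and 8 counts in Sham. With all libraries Top2a rose 7.96-fold, Cdk1 7.03-fold, Mki67 3.32-fold and Pcna 2.15-fold, while Ccnd1 rose 1.53-fold. In the rt-PA+Acu cortex Mcm5 alone was called higher than in Sham. With 9, 12 and 12 counts in Sham, it passed the filter only through rt-PA+Acu, so that call is a description. Differences between these comparisons were not tested, and both share the Sham libraries with the comparison of Model with Sham.

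In rt-PA compared to Sham 40 of 42 members were tested and 27 (67.5%) were called, against 54.7% of the 13023 genes tested. Of these 25 (62.5%) were higher and 2 lower, where 27.4% of all genes were called higher and 27.3% lower. The median log2 fold change was 0.94 for members and 0.00 for all genes, and with library size alone the median of all genes moved to 0.15. By role 4 of 9 G1/S regulators, 9 of 10 replication genes and 12 of 21 mitotic genes were called higher, and Ccnd2 and Anln lower. Top2a had a log2 fold change of 2.99 ± 0.49 (adjusted p = 0.00138) and Cdk1 of 2.81 ± 0.53 (0.00289). Mki67 had 1.73 ± 0.36 (0.00452), Pcna 1.10 ± 0.12 (0.000177) and Ccnd1 0.62 ± 0.16 (0.0119). For each of these 5 genes all 3 rt-PA libraries were above all 3 Sham libraries, and the call was kept without any single library. The log2 fold change of Top2a was 3.79 without Sham replicate 2, and that of Cdk1 3.42 without Sham replicate 1. Mcm5 had the largest log2 fold change of the members (3.70 ± 0.27, adjusted p = 3.52e-05). It passed the filter only through rt-PA, so its call is a description. The number of members called was between 22 and 28 without single libraries. Of 87 pathway genes 46 were called higher and 10 lower, and of 57 cell type markers 18 higher and 25 lower.

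In rt-PA+Acu compared to Sham 35 of 42 members were tested and 1 (2.86%) was called, against 5.10% of the 12775 genes tested, and it was higher, as were 1.70% of all genes. This gene was Mcm5, at 3.11, 3.92 and 15.6 CPM against 0.727, 0.919 and 1.05 CPM in Sham. All 3 rt-PA+Acu libraries were above Sham, replicate 3 by the most, and the log2 fold change was 3.07 ± 0.68 (adjusted p = 0.0421). For Mcm5 the call was lost at an adjusted p of 0.154 without Sham replicate 1, 0.174 without Sham replicate 2, 0.126 without Sham replicate 3 and 0.0563 without rt-PA+Acu replicate 2, in a range of 7.16e-05 to 0.174, and without rt-PA+Acu replicate 3 the log2 fold change was 1.95 (adjusted p = 0.0244). By edgeR 12 of the 35 members and 2964 of the 12775 genes had an unadjusted p under 0.05, and DESeq2 called 4 members (Mcm3, Mcm4, Mcm5 and Mcm6) and 1386 of 15488 genes. The number called by edgeR was 0 without Sham replicate 1, 2 or 3 (6, 7 and 9 at an unadjusted p under 0.05) or rt-PA+Acu replicate 2 (14), 5 without rt-PA+Acu replicate 1 and 2 without rt-PA+Acu replicate 3. With all libraries 10 of 10 replication genes had a positive log2 fold change, and 7 of them an unadjusted p under 0.05. Leaving out rt-PA+Acu replicate 3, these were 8 and 5, with Mcm7 at -0.16 and Rrm2 close to 0, and without Sham replicate 1 they were 10 and 4. Of the G1/S regulators edgeR called 0 of 9 (1 unadjusted) and DESeq2 0, and of the mitotic genes edgeR called 0 of 16 (4 unadjusted) and DESeq2 0. Log2 fold changes were 1.06 ± 0.41 for Mki67, 0.55 ± 0.19 for Pcna, 0.80 ± 0.67 for Top2a and -0.39 ± 0.26 for Ccnd1, with adjusted p between 0.131 and 0.512. For Top2a it was 0.05 without rt-PA+Acu replicate 3 and 1.59 without Sham replicate 2.

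The comparisons of Model with Sham and of rt-PA+Acu with rt-PA share no library, so their calls can be set side by side. Of the 17 members called higher in Model, 6 (35.3%) were called lower in rt-PA+Acu, and they made up 6 of the 9 called lower there. These were Cdk2, Cdk4, Mcm7, Top2a, Ccna2 and Kif11. Among all genes 1821 of the 3519 called higher in Model (51.7%) were called lower in rt-PA+Acu, out of 2306 called lower there. By role these were 2 of 3 G1/S regulators, 1 of 9 replication genes (11.1%) and 3 of 5 mitotic genes. These counts depend on single libraries. With rt-PA+Acu replicate 3 left out, 15 of the 17 members (88.2%) were called lower in rt-PA+Acu, 15 of the 23 called lower there, against 61.4% of all genes called higher in Model. By role these were 2 of 3 G1/S regulators, 9 of 9 replication genes and 4 of 5 mitotic genes. The number of members shared was 2 without Sham replicate 1, rt-PA replicate 1, rt-PA+Acu replicate 1 or rt-PA+Acu replicate 2, and 3 without Model replicate 1 or rt-PA replicate 2. Without any library other than rt-PA+Acu replicate 3 it held at most 1 replication gene, and by DESeq2 with all libraries 2. Anln, called lower in Model, was not called in rt-PA+Acu. No member was called in the same direction in both comparisons.

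Genes that act around the members were read from 6 further lists. For these and for the cell type lists below, the shares of all genes are those given above, with 27.3% called higher and 26.6% lower in Model, and 17.0% higher and 17.7% lower in rt-PA+Acu. In Model compared to Sham the inhibitors of cyclin-dependent kinases and pocket proteins had 3 of 10 called higher and 2 lower. Cdkn3, a phosphatase that acts on CDK2, was at 0.242, 0.230 and 0.175 CPM in Sham, 14, 8.71 and 9.09 in Model, 5.75, 4.37 and 11.5 in rt-PA and 1.09, 0.959 and 0.898 in rt-PA+Acu. This was 3, 3 and 2 counts in Sham, at or under the floor of 3 counts, and the gene was above 4 CPM in every Model and rt-PA library. In Model compared to Sham Cdkn3 passed the filter on low counts only through the Model libraries, so that call is a description. Its log2 fold change was 5.56 ± 0.37 in Model compared to Sham (adjusted p = 2.31e-05) and -2.86 ± 0.44 in rt-PA+Acu compared to rt-PA (adjusted p = 0.00397). Cdkn1a, which codes for the p53 target p21, was at 9.46, 8.27 and 21.3 CPM in Sham, 42.7, 47.3 and 64.6 in Model, 46.0, 58.1 and 73.7 in rt-PA and 7.66, 10.4 and 16.7 in rt-PA+Acu. All Model and rt-PA libraries were above all others, with log2 fold changes of 2.00 ± 0.34 (0.00158) and -2.35 ± 0.30 (0.00235). The pocket protein gene Rbl2 and the inhibitor gene Cdkn1b were called lower in Model (-0.82 ± 0.13 and -0.35 ± 0.13). The number called lower in Model was 1 without each of Sham replicates 1, 2 and 3 and Model replicates 1 and 2. Rbl2 was called higher in rt-PA+Acu (0.51 ± 0.13), where 1 of 10 was called higher and 2 lower. The adjusted p of Cdkn1b was 0.106 with library size alone, 0.0974 with 1 fit over 12 libraries, 0.051 without Sham replicate 1, 0.139 without Sham replicate 2, 0.11 without Sham replicate 3, 0.119 without Model replicate 1 and 0.15 without Model replicate 2, in a range of 0.00465 to 0.15. For Rbl2 in rt-PA+Acu it was 0.078 without rt-PA replicate 1, 0.0771 without rt-PA replicate 3, 0.0725 without rt-PA+Acu replicate 1 and 0.0709 without rt-PA+Acu replicate 2, in a range of 0.00668 to 0.078.

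Of the other E2F and MYC family factors 4 of 12 were called higher and 1 lower in Model, and in rt-PA+Acu 1 higher and 2 lower. Myc, a factor that drives growth and entry into the cycle, was at 4.36, 1.76 and 2.36 CPM in Sham, 47.8, 34.4 and 37.2 in Model, 53.1, 41.2 and 46.9 in rt-PA and 5.13, 5.23 and 10.3 in rt-PA+Acu. Model and rt-PA libraries were all above 34 CPM and the others all below 11 CPM, with log2 fold changes of 3.82 ± 0.31 against Sham (adjusted p = 4.36e-05) and -2.76 ± 0.29 against rt-PA (adjusted p = 0.00133). Without Sham replicate 3, 2 of the list were called lower in Model. E2f5, an E2F that binds pocket proteins, was higher in Model (1.25 ± 0.21). The neuronal MYC family gene Mycl was called lower in Model than in Sham, and higher than rt-PA in rt-PA+Acu (-1.57 ± 0.28 and 1.09 ± 0.22). Tfdp1, the partner of E2F factors, was lower in rt-PA+Acu (-0.50 ± 0.14). Leaving out 1 library took Tfdp1 past the threshold, to an adjusted p of 0.0878 without rt-PA replicate 1, 0.0653 without rt-PA replicate 3, 0.086 without rt-PA+Acu replicate 1 and 0.0977 without rt-PA+Acu replicate 2, in a range of 0.00793 to 0.0977. The number called in rt-PA+Acu was 2 without each of rt-PA replicates 1 and 3 and rt-PA+Acu replicates 1 and 2, 3 without rt-PA replicate 2 and 5 without rt-PA+Acu replicate 3.

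Origin licensing, firing and other S phase genes had 12 of 20 called higher and 1 lower in Model, and 1 higher and 4 lower in rt-PA+Acu. Mcm10, which helps to start the helicase, rose in Model (3.07 ± 0.58, adjusted p = 0.00257). It had 8, 9 and 1 counts in Sham and passed the filter on low counts only through Model, so its call is a description. Cdt1, which loads the helicase, was at 0.242, 1.76 and 0.961 CPM in Sham, 10.2, 5.07 and 4.71 in Model, 8.04, 8.82 and 7.07 in rt-PA and 1.09, 0.784 and 4.79 in rt-PA+Acu. Model and rt-PA were above Sham in every library, and rt-PA+Acu replicate 3 was far above the others of its group. The log2 fold changes were 2.75 ± 0.58 (0.00456; 3.47 without Sham replicate 2) and -1.81 ± 0.60 (0.0495). Cdt1 passed the filter only through Model in the first comparison and only through rt-PA in the second, so both calls are a description. Its counts were 3, 23 and 11 in Sham and 13, 9 and 64 in rt-PA+Acu. In rt-PA+Acu the adjusted p of Cdt1 was 0.0504 with library size alone, 0.109 without rt-PA replicate 1, 0.0994 without rt-PA replicate 2, 0.0946 without rt-PA replicate 3, 0.129 without rt-PA+Acu replicate 1 and 0.119 without rt-PA+Acu replicate 2, in a range of 0.00106 to 0.129, and without rt-PA+Acu replicate 3 the log2 fold change was -3.06. With a block for replicate number the adjusted p of Cdt1 was 0.0509. Cdc45, a part of the active helicase, was called lower in Model than in Sham, and higher than rt-PA in rt-PA+Acu (-0.55 ± 0.10 and 0.57 ± 0.17), opposite to the other named genes of the list. In rt-PA+Acu its adjusted p was 0.071 with library size alone, 0.115 without rt-PA replicate 1, 0.103 without rt-PA replicate 2, 0.0891 without rt-PA+Acu replicate 1, 0.0975 without rt-PA+Acu replicate 2 and 0.0589 without rt-PA+Acu replicate 3, in a range of 0.00849 to 0.115. Orc6, a subunit of the origin recognition complex, was lower in rt-PA+Acu (-0.94 ± 0.23), with an adjusted p of 0.0561 without rt-PA replicate 1, 0.067 without rt-PA replicate 3, 0.0573 without rt-PA+Acu replicate 1 and 0.0597 without rt-PA+Acu replicate 2, in a range of 0.0039 to 0.067. In Model 7 were called higher without Sham replicate 1. In rt-PA+Acu the number called lower was 0 without rt-PA replicate 1, rt-PA+Acu replicate 1 or rt-PA+Acu replicate 2, 1 without rt-PA replicate 2 or 3, and 9 without rt-PA+Acu replicate 3. In each of the 3 fits by edgeR with 0 called, 5 of the 20 had an unadjusted p under 0.05, and DESeq2 with all libraries called 5 lower.

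Checkpoint kinases and CDC25 phosphatases had 7 of 14 called higher and 2 lower in Model, and 2 higher and 2 lower in rt-PA+Acu. Plk4, the kinase of centriole duplication, and Cdc25c, a phosphatase that activates CDK1, were higher in Model (1.38 ± 0.28 and 1.31 ± 0.41). For Cdc25c the adjusted p was 0.0643 without Sham replicate 1, 0.0938 without Sham replicate 2 and 0.106 without Model replicate 2. It was 0.0523 with a block for replicate number, in a range of 0.019 to 0.106. Wee1, the kinase that holds CDK1 inactive, was at 38.9, 40.4 and 38.6 CPM in Sham, 17.9, 19.1 and 18.1 in Model, 18.9, 22.4 and 23.3 in rt-PA and 44.0, 38.1 and 45.1 in rt-PA+Acu. Every Model and rt-PA library was below every Sham and rt-PA+Acu library, with log2 fold changes of -1.09 ± 0.10 and 0.98 ± 0.14. Atm, the DNA damage kinase, moved the same way (-0.42 ± 0.10 and 0.72 ± 0.10). In rt-PA+Acu the stress kinase gene Plk3 and Ccnh, the cyclin of the CDK-activating kinase, were lower (-1.22 ± 0.21 and -0.46 ± 0.11). For Ccnh the adjusted p was 0.0524 without rt-PA replicate 3, 0.0563 without rt-PA+Acu replicate 1 and 0.0586 without rt-PA+Acu replicate 2, in a range of 0.0019 to 0.0586. The number called lower in rt-PA+Acu was 1 without rt-PA replicate 3, rt-PA+Acu replicate 1 or rt-PA+Acu replicate 2, and 4 without rt-PA+Acu replicate 3.

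Other mitotic genes had 5 of 19 called higher in Model and 3 of 22 called lower in rt-PA+Acu. With all libraries both shares are near those of all genes and are not a result about the list. Nuf2, a kinetochore protein, and Ccnf, cyclin F, were higher in Model (1.53 ± 0.37 and 1.39 ± 0.21). Cdca3, a trigger of mitotic entry, and Nusap1, a spindle protein, were lower in rt-PA+Acu (-2.14 ± 0.44 and -1.71 ± 0.34). Cdca3 was at 4, 5 and 6 counts in rt-PA+Acu and Nusap1 at 11, 8 and 16. Both passed the filter only through rt-PA, so their calls are a description. In Model the number called higher was 3 without each of Sham replicates 1, 2 and 3 and Model replicates 1 and 2, and 12 without Model replicate 3. In rt-PA+Acu it was 6 lower without replicate 3 of that group and between 2 and 4 without any other library. Other cyclins and neuronal CDK5 genes had 3 of 9 called higher and 4 lower in Model, and 3 higher and 2 lower in rt-PA+Acu. Ccng2, a cyclin of arrested cells, and Cdk5r1, the p35 activator of CDK5 in neurons, were lower in Model (-1.19 ± 0.17 and -0.94 ± 0.08). Both were higher in rt-PA+Acu (1.02 ± 0.12 and 0.86 ± 0.14). Ccng1, a p53 target, and Ccnc, the cyclin of the Mediator complex, were higher in Model (0.75 ± 0.11 and 0.71 ± 0.08), and Ccng1 and Ccnl1, a cyclin tied to splicing, were lower in rt-PA+Acu (-0.55 ± 0.12 and -0.76 ± 0.14).

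Cell type markers also differed between the groups, in both directions, and their part in the results was not tested. Of 57 tested 11 were called higher and 27 lower in Model, and 15 higher and 18 lower in rt-PA+Acu. Of the 13 lists, neural progenitor and young neuron markers had 2 of 6 called higher and 2 lower in Model. In rt-PA+Acu the directions were reversed, as the 2 called higher in Model were called lower and the 2 called lower in Model were called higher. The marker with the highest group mean is named for each list, and it was Nes in Model and rt-PA and Dcx in Sham and rt-PA+Acu. The summed level of the list was 176, 176 and 146 CPM in Sham, 333, 253 and 189.9 in Model, 415, 250.4 and 281 in rt-PA and 175, 156 and 312 in rt-PA+Acu. Model replicate 3 was the lowest of its group and rt-PA+Acu replicate 3 the highest of its group, as for the replication genes. In rt-PA+Acu replicate 3, Eomes, a factor of intermediate progenitors, was at 7.86 CPM against at most 0.338 in the other 11 libraries. Dcx, a protein of young neurons, was at 149 CPM there against at most 86.1 elsewhere, and Nes, a filament of progenitors and reactive glia, was at 77.3 CPM against 19.5 and 23.0 in the other libraries of the group. These genes were named after their values were seen. In rt-PA+Acu the number called lower was 1 without rt-PA+Acu replicate 2, and in Model 3 were called higher without Model replicate 1 or 2.

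Infiltrating monocyte and macrophage markers had 4 of 5 called higher in Model and 5 of 5 lower in rt-PA+Acu. Their sum, with Lyz2 the most abundant, was 56.6, 71.7 and 57.4 CPM in Sham, 206, 161 and 239 in Model, 436, 255 and 232 in rt-PA and 31.3, 31.1 and 48.6 in rt-PA+Acu. All Model and rt-PA libraries were above all Sham and rt-PA+Acu libraries. Endothelial markers had 1 of 5 called higher in Model and 5 of 5 lower in rt-PA+Acu. Kdr was the most abundant in Model and rt-PA, and Tek in Sham and rt-PA+Acu. Their sum was 152, 180.5 and 134 CPM in Sham, 204, 239 and 381 in Model, 378, 256 and 290.3 in rt-PA and 89.6, 88.4 and 97.5 in rt-PA+Acu. Model replicate 3 was the highest of its group here, while it was the lowest for most members. For endothelial markers 2 were called higher in Model without Sham replicate 2, and 2 lower without Model replicate 3. Neutrophil markers had 1 of 4 called higher in Model and 3 of 4 lower in rt-PA+Acu, with Mpo, Ltf and Elane at 0 in all libraries. S100a9 was the most abundant in rt-PA, and Csf3r in the other 3 groups. Their sum was 11.7, 7.2 and 9.78 CPM in Sham, 4.81, 10.2 and 15.7 in Model, 79.0, 33.7 and 14.1 in rt-PA and 5.47, 5.23 and 3.67 in rt-PA+Acu. Without Sham replicate 1, Sham replicate 2 or Model replicate 2, edgeR called 0 of the 4 in Model, with 1 at an unadjusted p under 0.05 in each of these fits and 1 called by DESeq2 with all libraries.

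Oligodendrocyte precursor markers, which label the main dividing cells of the uninjured cortex, had 6 of 6 called lower in Model, while 1 of 6 was called higher in rt-PA+Acu. Pdgfra was the most abundant, except in Model, where Olig1 was. Their sum was 524, 655 and 602 CPM in Sham, 164, 214 and 233 in Model, 262, 284 and 264 in rt-PA and 584, 437 and 257 in rt-PA+Acu. All Model and rt-PA libraries were below Sham, and rt-PA+Acu replicate 3 lay with them. Without rt-PA+Acu replicate 3, 2 of 6 were called higher in rt-PA+Acu. Microglial markers had 5 of 5 called lower in Model and 2 of 5 higher in rt-PA+Acu, with none called lower there. Their sum, with Csf1r the most abundant, was 376, 407 and 323 CPM in Sham, 188, 157 and 166 in Model, 197, 197 and 172 in rt-PA and 254, 294 and 238 in rt-PA+Acu. All Model and rt-PA libraries were below all rt-PA+Acu libraries, which were below all Sham libraries. Without rt-PA+Acu replicate 3, 3 were called higher in rt-PA+Acu.

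Cortical neuron markers had 1 of 7 called higher and 5 lower in Model. In rt-PA+Acu 5 were called higher, and sums lay between 3519 and 6154 CPM over the 12 libraries, with Snap25 the most abundant. In rt-PA+Acu 3 were called higher without rt-PA+Acu replicate 2 and 1 lower without rt-PA+Acu replicate 3, and in Model 2 were called higher without Sham replicate 3. Astrocyte markers had 1 of 5 called higher and 4 lower in Model. In rt-PA+Acu 4 were called higher, and sums lay between 2945 and 6541 CPM, with Slc1a3, a glutamate transporter, the most abundant in Sham and Gfap, the filament of reactive astrocytes, in the other 3 groups. The highest astrocyte sum was that of rt-PA+Acu replicate 3. In rt-PA+Acu 2 were called higher without rt-PA replicate 1 or rt-PA+Acu replicate 1, and 1 lower without rt-PA+Acu replicate 3. Mature oligodendrocyte markers had 0 of 5 called in rt-PA+Acu by edgeR, 0 at an unadjusted p under 0.05 and 0 by DESeq2. Pericyte and fibroblast markers had 1 of 6 called lower in Model. In rt-PA+Acu 1 was called higher and 2 lower, and sums lay between 67.0 and 311 CPM, with Pdgfrb the most abundant in Model and rt-PA and Rgs5 in Sham and rt-PA+Acu. For these, 2 were called lower in Model without Sham replicate 1 or Model replicate 3 and 3 without Model replicate 2. In rt-PA+Acu the number called lower was 0 without rt-PA replicate 1 or 3 or rt-PA+Acu replicate 1 or 2, 4 without rt-PA replicate 2 and 1 without rt-PA+Acu replicate 3. Where edgeR called 0 lower, 3 or 4 of the 6 had an unadjusted p under 0.05 in either direction, and DESeq2 with all libraries called 2 lower. Ependymal and choroid plexus markers had 1 of 2 called higher in Model. In rt-PA+Acu 1 was called lower, and sums lay between 1.85 and 19.2 CPM, with Kl the most abundant in Model and rt-PA and Rsph1 in Sham and rt-PA+Acu. Without rt-PA+Acu replicate 1, 1 was also called higher there. The 1 erythroid marker tested was called in neither comparison by edgeR (0 at an unadjusted p under 0.05, 0 by DESeq2), with sums between 0.458 and 1.54 CPM and Klf1 the most abundant. None of the 6 lymphocyte markers passed the filter, and their sum, with Cd2 the most abundant, was at most 4.85 CPM.

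**Figure D5:**
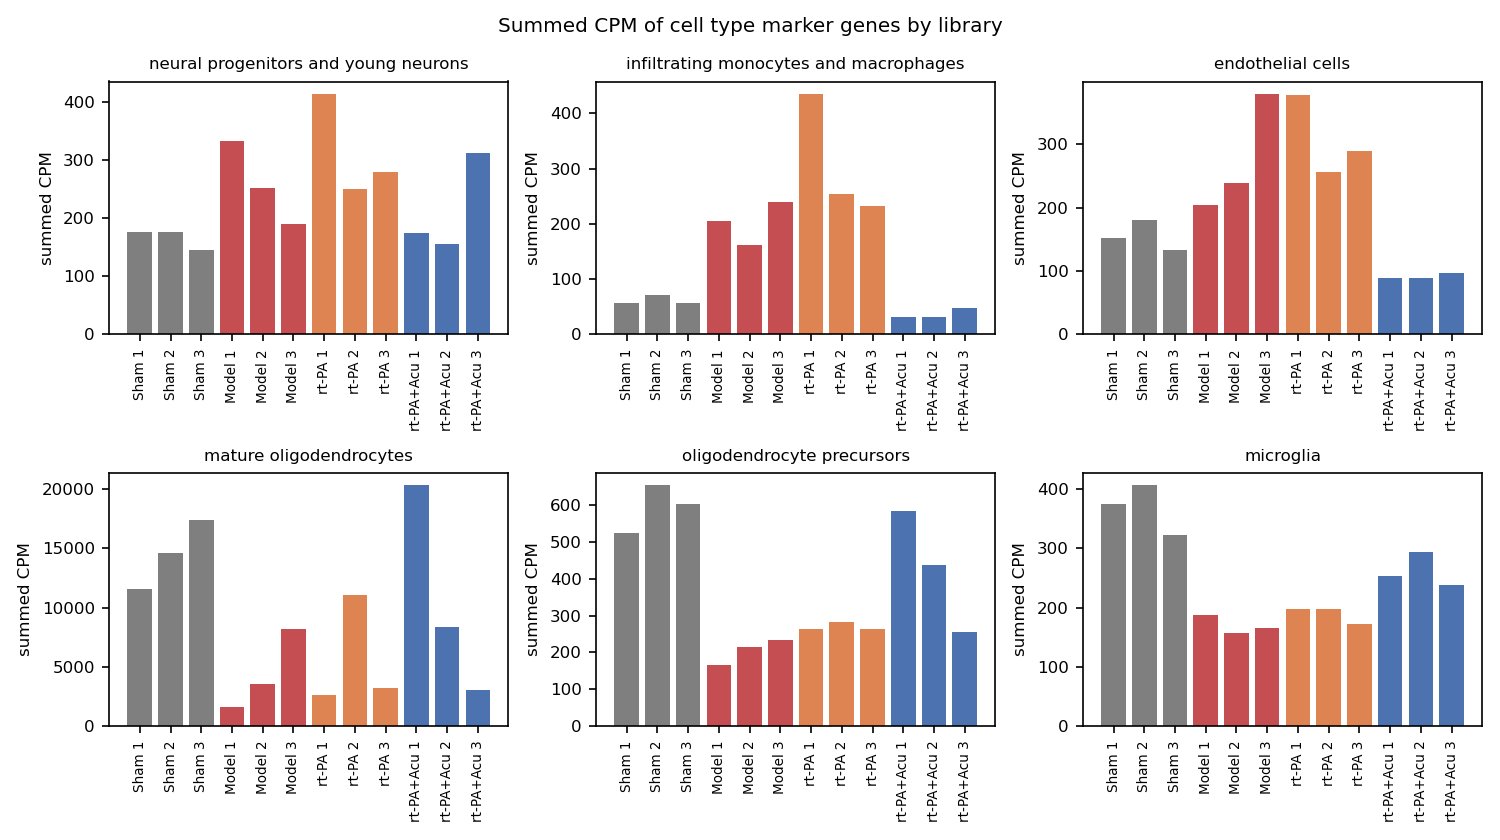
Summed CPM of the markers of 6 cell type lists with 1 bar for each library, coloured by group. Monocyte and macrophage sums are above Sham and rt-PA+Acu in every Model and rt-PA library, and the neural progenitor sum of rt-PA+Acu replicate 3 is 312 CPM, the highest of its group.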

How the data were processed

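Messenger RNA of the cerebral cortex was sequenced in 12 libraries, 3 for each of 4 groups. The deposited values are raw counts for each gene symbol, which the authors made by aligning read pairs to mRatBN7.2 with STAR 2.7.10a. Salmon 1.9.0 and featureCounts 2.0.1 are both named for counting, and the annotation release and strand setting were not stated. Counts were scaled by TMM and tested with edgeR 4.0.16 (quasi-likelihood, filterByExpr; R 4.3.3) on the 6 libraries of each pair, with Benjamini-Hochberg adjustment over all genes tested. Figures were drawn with matplotlib 3.10.9, and the tests were checked on simulated data. Alternatives were DESeq2 1.42.0, its size factors, library size alone, 2 other filters, 1 fit over 12 libraries, a replicate block, and leaving out each library, which assumes equal spread in the groups. Alternatives for pathway genes and for calls shared by 2 comparisons were added after seeing the data. Members and lists (6 pathway, 13 cell type) were chosen with earlier results of these data known. Values in every library are given for the 3 called members with the largest absolute log2 fold change of each role in Model compared to Sham and in rt-PA+Acu compared to rt-PA, and for Mki67, Top2a, Pcna, Ccnd1 and Cdk1. Of each pathway list, the called genes with the 2 largest rises and falls were named, and exceptions are stated. Some genes are not reported here, and lists were read without them.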

Additional observations from a re-analysis of the deposited data

How the results depend on the processing

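The number of members called in Model compared to Sham (18) stayed within 1.5 times under the alternatives run, at 14 to 19, as did rt-PA compared to Model at 0 (edgeR; 4 at an unadjusted p under 0.05; DESeq2 0) and rt-PA compared to Sham (27) at 19 to 29. Without single libraries these ranges were 12 to 23, 0 to 0 and 22 to 28. In rt-PA+Acu compared to rt-PA (11) the count was 9 to 14 outside the replicate block, and 3 to 25 without single libraries. In rt-PA+Acu compared to Sham (1) it was 4 by DESeq2, 0 with at least 10 counts in every library, 3 with 1 fit over 12 libraries, and 0 to 5 without single libraries. With the replicate block it was 6 in rt-PA+Acu compared to rt-PA, 2 in rt-PA+Acu compared to Sham, 18 in Model compared to Sham, 0 in rt-PA compared to Model and 26 in rt-PA compared to Sham. Replicates share only a number, and each library correlated best with its own number in Model compared to Sham but not in the other 4 comparisons. Members called higher in Model compared to Sham and lower in rt-PA+Acu compared to rt-PA (6) numbered 4 to 8 under the other alternatives, 2 with the replicate block and 2 to 15 without single libraries. No member changed direction while called. With 3 animals in a group, the replication genes called in rt-PA+Acu compared to rt-PA went from 1 to 9 without rt-PA+Acu replicate 3. They went to 0 without rt-PA replicate 1, rt-PA replicate 3, rt-PA+Acu replicate 1 or rt-PA+Acu replicate 2. Cell numbers were not measured.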
